A study of Mus musculus with 15 samples.

Results

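The genes described here carry single-carbon units on folate, make serine from a glycolytic intermediate and make thymidylate for DNA. They were 9 genes fixed by name: Slc19a1, Shmt1, Shmt2, Mthfd1, Mthfd2, Mthfd1l, Phgdh, Psat1 and Tyms. A gene was measured through every probe set that the platform annotation assigned to it alone. This gave 19 probe sets for 8 of the 9 genes, out of 28898 probe sets and 17097 genes on the array. Both Mthfd2 probe sets were annotated to Gsn as well, so no value is given for Mthfd2. Where a gene had several probe sets, the one with the highest mean over all arrays stood for the gene. The others are described for Myc against Shh tumours, and in part elsewhere.

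The study profiled total RNA of 15 mouse samples in 5 groups of 3, each sample on its own Affymetrix HT_MG-430_PM array with 1 colour. Myc secondary tumours grew after sphere cultures of Myc primary tumours had been transplanted orthotopically. Myc primary tumours arose in the cerebral cortex of nude mice, which lack most T cells, from implanted cerebellar cells of Cdkn2c-/-, Trp53-/-, Atoh1-GFP mice that had been infected with Myc. Shh tumours were medulloblastomas that formed spontaneously in Cdkn2c-/-; Trp53 Fl/Fl; Nestin-Cre mice, in which Nestin-Cre acts in neural progenitors. GFP-positive and GFP-negative cells were sorted from the cerebella of Cdkn2c-/-, Trp53-/-, Atoh1-GFP mice at postnatal day 6. All 5 groups thus lacked Cdkn2c and had a deleted or deletable Trp53, and none was wild type. The sample labels call the sorted cells spontaneous tumour, against the design text, which was followed. Separate animals are not stated for the arrays within a group, so p-values measure only the spread between these samples, which may be technical.

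Atoh1, the transcription factor that defines granule neuron progenitors and drives the reporter, read 8.97, 9.29 and 8.51 in GFP-positive cells, against 3.75, 3.96 and 4.55 in GFP-negative cells. All values are log2 signals. The background level was set at 4.77, which 95% of the readings of nonspecific control probe sets did not exceed. Arrays of a group correlated at 0.962 to 0.995 across genes. Within their groups, Myc secondary 1, Myc primary 3 and GFP-negative 3 correlated least with the other arrays, and calls that end without these 3 arrays are named. GFP-negative 3 had an interquartile range of 2.99, against 3.33 to 3.78 on the other arrays.

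As background, serine hydroxymethyltransferases move a carbon from serine to tetrahydrofolate, in the cytosol and in mitochondria, and release glycine. The folate-bound carbon is then used for purines, for methionine and, by thymidylate synthase, for the thymine of DNA. Dividing cells need all of these products, and antifolate drugs such as methotrexate act on the pathway. Myc is known from other cell types to bind near several of these genes, and genes of serine synthesis are known targets of the stress factor Atf4.

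Of the genes whose promoters hold letters that Myc is known to bind, 4 are printed, and Psat1, which also holds them, is not. The printed promoters are RefSeq sequences of the GRCm38.p6 build, from 250 bases before to 50 after a transcription start, read along the gene's strand. Tyms lies at chr5:30073576-30073875 on the minus strand and Shmt1 at chr11:60811216-60811515 on the minus strand. Shmt2 lies at chr10:127522395-127522694 on the minus strand, and the window of the second listed start of Slc19a1 at chr10:77032962-77033261 on the plus strand. Capitals mark CACGTG, the canonical E-box, CACGCG or its complement, a variant E-box, and GGGCGG or its complement, the GC box bound by Sp factors.
Tyms: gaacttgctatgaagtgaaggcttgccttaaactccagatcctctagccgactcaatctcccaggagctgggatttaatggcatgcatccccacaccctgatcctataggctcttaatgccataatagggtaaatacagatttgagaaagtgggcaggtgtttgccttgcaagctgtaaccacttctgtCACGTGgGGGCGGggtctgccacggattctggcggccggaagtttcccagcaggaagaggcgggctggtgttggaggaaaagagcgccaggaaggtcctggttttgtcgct
Shmt1: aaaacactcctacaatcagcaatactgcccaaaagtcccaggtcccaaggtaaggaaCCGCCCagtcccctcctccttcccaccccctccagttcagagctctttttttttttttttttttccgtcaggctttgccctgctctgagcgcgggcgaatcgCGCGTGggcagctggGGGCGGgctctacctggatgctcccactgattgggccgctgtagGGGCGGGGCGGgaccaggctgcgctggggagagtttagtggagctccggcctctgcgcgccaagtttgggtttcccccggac
Shmt2: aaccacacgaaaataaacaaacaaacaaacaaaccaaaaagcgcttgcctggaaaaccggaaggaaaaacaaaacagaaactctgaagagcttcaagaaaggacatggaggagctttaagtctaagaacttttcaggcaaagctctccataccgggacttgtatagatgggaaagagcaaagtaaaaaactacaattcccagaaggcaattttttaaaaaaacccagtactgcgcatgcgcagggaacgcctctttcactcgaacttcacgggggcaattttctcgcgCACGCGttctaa
Slc19a1: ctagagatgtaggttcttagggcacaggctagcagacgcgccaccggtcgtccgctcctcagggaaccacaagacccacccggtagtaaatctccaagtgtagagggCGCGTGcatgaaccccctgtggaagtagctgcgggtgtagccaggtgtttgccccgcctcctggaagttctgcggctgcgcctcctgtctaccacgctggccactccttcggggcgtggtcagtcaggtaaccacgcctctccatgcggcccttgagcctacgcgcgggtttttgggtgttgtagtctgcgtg

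All 9 genes matched the table, with 11 windows because Slc19a1 and Psat1 have 2 listed starts each. Both strands were searched. CACGTG occurred in 1 of the 11 windows, that of Tyms, where it begins 61 bases before the start, against 7.15% of all 32851 windows of this length. CACGCG occurred in 5 of 11, those of Shmt1, Shmt2, Slc19a1 and both of Psat1, against 9.27% of all windows. GGGCGG occurred in 6 of 11, against 35.7% of all. In Shmt1 the last pair of GC boxes overlap by 1 base. None of the 11 held CACATG (14.2% of all), the E2F letters TTTCGCGC (0.323%) or TTTGGCGC (0.514%), or TGATGNAA, the core of the element bound by Atf4 (3.97%). The member windows were richer in GC, with a median of 59.0% against 52.7%, and no match was tested for binding. Part of the motif list was chosen after a first look at these windows.

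The comparison of the Myc tumours with the Shh tumours set a Myc-driven against a Shh-type model of medulloblastoma. The groups also differed in transplantation, host and Trp53 allele, and primary tumours in site, which cannot be told apart from the driver. The folate carrier, both serine hydroxymethyltransferases, Mthfd1, Mthfd1l and Phgdh were higher in the Myc tumours, whether primary or secondary. Tyms and Psat1 were not called. In Myc secondary tumours 6 of 8 genes were higher and 0 lower, where 10.5% of all genes were called higher and 12.3% lower. In Myc primary tumours 6 of 8 were higher and 0 lower, where 8.46% of all genes were called higher and 7.33% lower. The arrays of the groups did not overlap for 6 genes in secondary tumours (42.4% of all genes) and for 7 in primary tumours (36.5%), Psat1 being the added gene, with primary arrays below the Shh arrays. A gene was called when its adjusted p in limma, over all 17097 genes, was below 0.05. The median difference of the 8 genes was 0.94 in secondary and 1.10 in primary tumours, and over all genes it was 0.07 and 0.08. Both comparisons use the same Shh arrays and are given side by side.

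**Figure D1:**
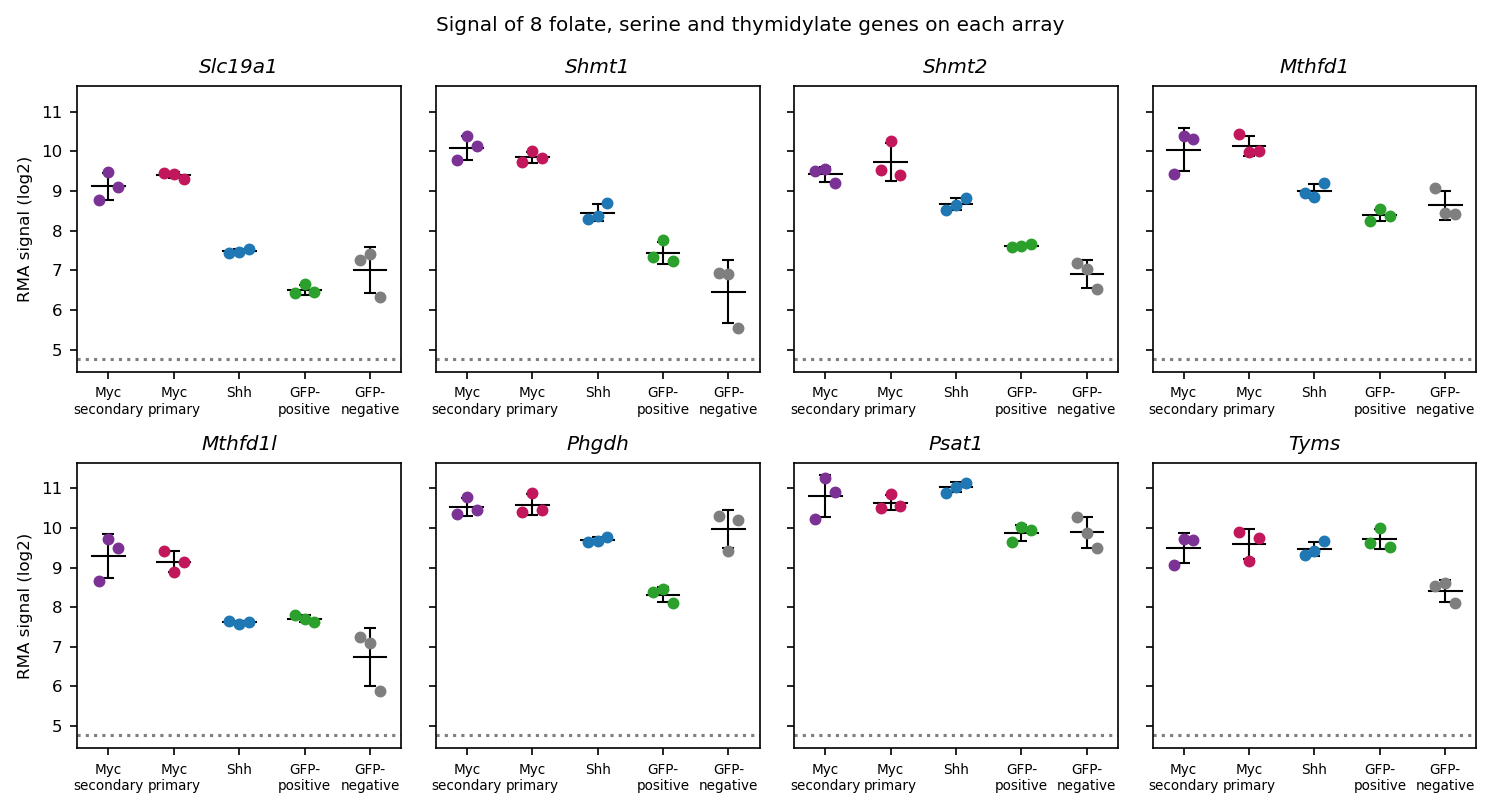
Log2 RMA signal of 8 genes on each array (points), with the group mean and standard deviation of 3 arrays (lines and bars); the dotted line is the background level of 4.77. The 6 Myc tumour arrays lie above the 3 Shh arrays for Slc19a1, Shmt1, Shmt2, Mthfd1, Mthfd1l and Phgdh, and overlap them for Tyms.

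Slc19a1, the reduced folate carrier that brings folates and methotrexate into the cell, read 8.78, 9.47 and 9.11 in Myc secondary tumours. It read 9.44, 9.44 and 9.31 in Myc primary tumours, against 7.45, 7.45 and 7.55 in Shh tumours. The Shh values were nearly alike and lay below every Myc array. The difference was 1.64 ± 0.24 for secondary tumours (standard error, adjusted p = 0.00039 in limma) and 1.91 ± 0.24 for primary tumours (adjusted p = 0.00021). Among the 8 genes this was the largest difference of Myc primary from Shh tumours, 3.77-fold.

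Shmt1, the cytosolic serine hydroxymethyltransferase, read 9.77, 10.38 and 10.14 in Myc secondary tumours. It read 9.73, 10.01 and 9.82 in Myc primary tumours, against 8.30, 8.37 and 8.70 in Shh tumours, with no overlap. It was 1.64 ± 0.32 higher in secondary tumours (adjusted p = 0.0024) and 1.40 ± 0.32 higher in primary tumours (adjusted p = 0.0096). All 4 Shmt1 probe sets were called higher in primary tumours, by 1.19 to 1.40, with p adjusted over all probe sets. In secondary tumours 3 of them were, by 1.22 to 1.84, and the other differed by 0.95 (adjusted p = 0.064).

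Shmt2, the mitochondrial enzyme of the same reaction, read 9.50, 9.57 and 9.20 in Myc secondary tumours. It read 9.52, 10.27 and 9.39 in Myc primary tumours, against 8.53, 8.65 and 8.83 in Shh tumours. Myc primary 2 was the highest array, and the lowest Myc array stood above the highest Shh array. The difference was 0.75 ± 0.22 for secondary tumours (adjusted p = 0.029) and 1.06 ± 0.22 for primary tumours (adjusted p = 0.0066). The secondary call ended without Myc secondary 1 (0.71) or 2 (0.68) and without Shh 1 (0.68) or 2 (0.74). The other 2 Shmt2 probe sets were dimmer, with highest group means of 6.58 and 5.86. Their names carry the suffix for probes that can match related sequences, and neither was called in primary (0.51 and 0.37) or secondary tumours (0.58 and 0.60).

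Mthfd1, the cytosolic trifunctional enzyme that interconverts forms of the folate-bound carbon, read 9.43, 10.40 and 10.32 in Myc secondary tumours. It read 10.44, 9.98 and 10.01 in Myc primary tumours, against 8.95, 8.84 and 9.20 in Shh tumours. Myc secondary 1 was the lowest Myc array and still above the Shh arrays. The difference was 1.05 ± 0.25 for secondary tumours (adjusted p = 0.0099) and 1.14 ± 0.25 for primary tumours (adjusted p = 0.0088). The second Mthfd1 probe set gave 1.08 and 1.04, both called.

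Mthfd1l, the mitochondrial synthetase that releases the carbon as formate for use in the cytosol, read 8.67, 9.72 and 9.49 in Myc secondary tumours. It read 9.41, 8.88 and 9.14 in Myc primary tumours, against 7.65, 7.57 and 7.63 in Shh tumours. The Shh values were nearly alike, the Myc values more spread, and the groups did not overlap. The difference was 1.68 ± 0.32 for secondary tumours (adjusted p = 0.0025) and 1.52 ± 0.32 for primary tumours (adjusted p = 0.0069). It rests on 1 probe set.

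Phgdh, which commits phosphoglycerate to serine synthesis, read 10.35, 10.77 and 10.46 in Myc secondary tumours. It read 10.41, 10.88 and 10.46 in Myc primary tumours, against 9.63, 9.68 and 9.77 in Shh tumours, without overlap. The difference was 0.83 ± 0.22 for secondary tumours (adjusted p = 0.016) and 0.89 ± 0.22 for primary tumours (adjusted p = 0.016). The primary call ended without Myc primary 2 (0.74), Shh 1 (0.86) or Shh 2 (0.88), and the secondary call without Myc secondary 2 (0.71) or Shh 1 (0.80). The probe set used for Phgdh carries the same name suffix as the dimmer Shmt2 probe sets, for probes that can match related sequences. A second Phgdh probe set gave 1.08 for secondary and 1.15 for primary tumours, both called. Phgdh is also abundant in astrocytes. The mean of 8 astroglial markers was 5.10 to 5.83 in Myc secondary tumours, with Gfap, Aqp4, Slc1a2 and S100b below background, and 7.44, 5.17 and 7.82 in Myc primary tumours, against 5.58 to 6.42 in Shh tumours. The part of these cells in the Phgdh result was not tested, and in bulk samples fewer cells of a type and less RNA per cell cannot be told apart.

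Psat1, the aminotransferase of the next step, did not follow Phgdh. It read 10.22, 11.26 and 10.91 in Myc secondary tumours and 10.51, 10.86 and 10.55 in Myc primary tumours, against 10.89, 11.04 and 11.14 in Shh tumours. Myc secondary arrays overlapped the Shh arrays, and Myc primary arrays lay just below them. The difference was -0.23 ± 0.25 for secondary tumours, with a 95% interval of -0.77 to 0.32 (adjusted p = 0.57). For primary tumours it was -0.38 ± 0.25, with an interval of -0.92 to 0.16 (adjusted p = 0.35). An increase in primary tumours as large as that of Phgdh lies outside this interval. Without Myc secondary 1 the secondary difference was 0.06.

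Tyms, thymidylate synthase, read 9.06, 9.73 and 9.70 in Myc secondary tumours and 9.89, 9.16 and 9.73 in Myc primary tumours, against 9.32, 9.42 and 9.66 in Shh tumours. The groups overlapped throughout. The difference was 0.03 ± 0.23 for secondary tumours (95% interval -0.48 to 0.53, adjusted p = 0.95) and 0.13 ± 0.23 for primary tumours (interval -0.38 to 0.64, adjusted p = 0.78). It fell below 0 without Myc primary 1 (-0.02) for primary tumours, and without Myc secondary 2 (-0.09), Myc secondary 3 (-0.08) or Shh 1 (-0.05) for secondary tumours. Of the 5 Tyms probe sets, 2 were below background in every group. Another, with a highest group mean of 6.54, differed by -0.79 in secondary and -0.90 in primary tumours and was not called (adjusted p = 0.13 and 0.11). The mean of 13 measured genes of S phase and mitosis was 10.53 to 10.68 in Myc secondary tumours and 10.28 to 10.49 in Myc primary tumours, against 10.25 to 10.52 in Shh tumours. In limma 0 of the 13 were called in either comparison. Among the other marker lists, 6 of 7 genes of granule neuron progenitors were lower in both Myc tumour groups, where the list mean was 5.71 to 6.88 in secondary and 6.22 to 6.65 in primary tumours, against 9.63 to 9.83 in Shh tumours. Granule neuron markers were lower in 4 of 7 in both. Myc primary 3 had a list mean of 8.59 for the oligodendrocyte lineage, 7.28 for fibroblasts and meninges and 7.04 for endothelial and mural cells. No other Myc array was as high for these 3 lists, and the highest Shh arrays had 5.87, 4.47 and 5.36. The part of these differences in the results on folate genes was not tested.

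**Figure D2:**
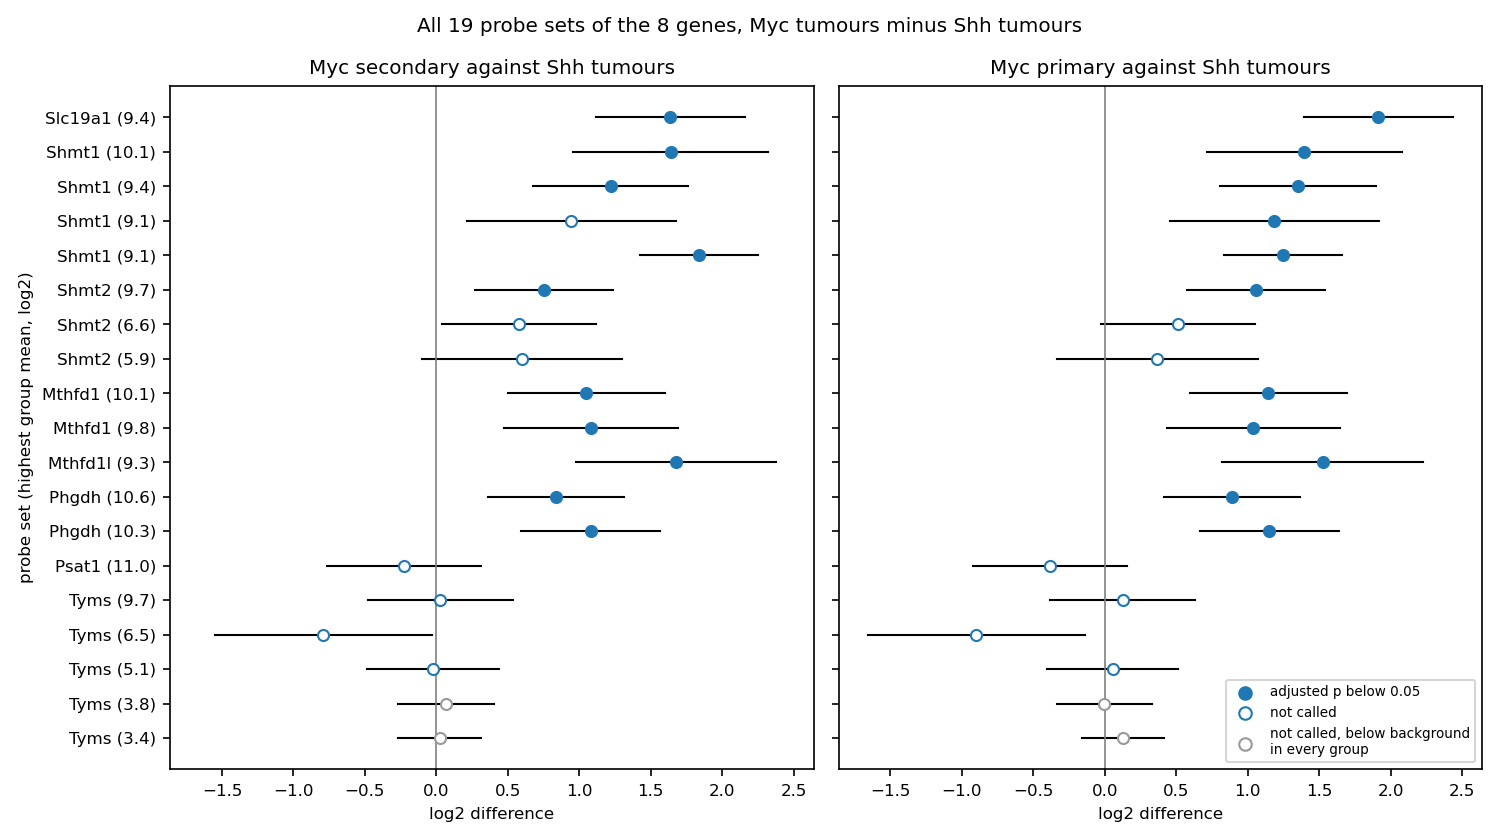
Difference of Myc secondary (left) and Myc primary tumours (right) from Shh tumours for each of the 19 probe sets, in log2 units with 95% intervals from the fit over all probe sets; the highest group mean stands in brackets. Filled points were called: 10 in secondary and 11 in primary tumours, none of them for Psat1 or Tyms.

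Counted by probe set, 10 of 19 were higher in secondary tumours (10.9% of all probe sets) and 11 of 19 in primary tumours (7.22% of all). The probe sets of a gene share its RNA and are not independent.

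Myc itself, which was introduced into the primary tumour cells, read 10.10, 9.12 and 8.88 in Myc secondary tumours and 8.41, 5.21 and 9.0 in Myc primary tumours, against 8.19, 9.13 and 8.15 in Shh tumours. The probe set's position relative to the introduced sequence is not given in the sources used here. Myc primary 2, the array with the lowest Myc, had Slc19a1 at 9.44, Shmt1 at 10.01 and Phgdh at 10.88, each the highest of its group or level with it. The same array was the lowest Myc primary array for Mthfd1 (9.98), Mthfd1l (8.88) and Tyms (9.16). The Myc difference was 0.87 ± 0.74 for secondary (adjusted p = 0.45) and -0.95 ± 0.74 for primary tumours (adjusted p = 0.44), and 0.21 in primary tumours without Myc primary 2. Mycn, the Myc-family gene that Shh signalling induces, read 4.68, 4.73 and 5.16 in secondary and 4.94, 4.10 and 4.58 in primary tumours on the probe set used, against a mean of 10.70 in Shh tumours. It was called lower in both, and 2 of 3 arrays of each Myc group were below background, so no size is given. The mean of its probe sets gave -0.17 and -0.29, neither called. The Mycn probe sets thus did not agree, and a lower Mycn rests on the probe set used. Atf4 differed by 0.20 ± 0.26 in secondary (adjusted p = 0.64) and by 0.16 ± 0.26 in primary tumours (adjusted p = 0.74).

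Secondary and primary Myc tumours were then compared, to ask what passage through culture and a second host changed. In limma 0 of the 8 genes were called, and 0 had an unadjusted p below 0.05, where 0.257% of all genes were called higher and 0.462% lower. Of all 17097 genes, 2137 had an unadjusted p below 0.05. The differences ran from -0.31 for Shmt2 (95% interval -0.79 to 0.18) to 0.24 for Shmt1 (interval -0.44 to 0.93). For the other 6 genes the intervals reached no lower than -0.80 and no higher than 0.86, so differences within each gene's interval are not excluded. The arrays overlapped for all 8 genes, where 17.7% of all genes did not overlap. Myc secondary 1 was the lowest secondary array for Mthfd1, Mthfd1l, Psat1, Slc19a1, Shmt1, Phgdh and Tyms.

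**Figure D3:**
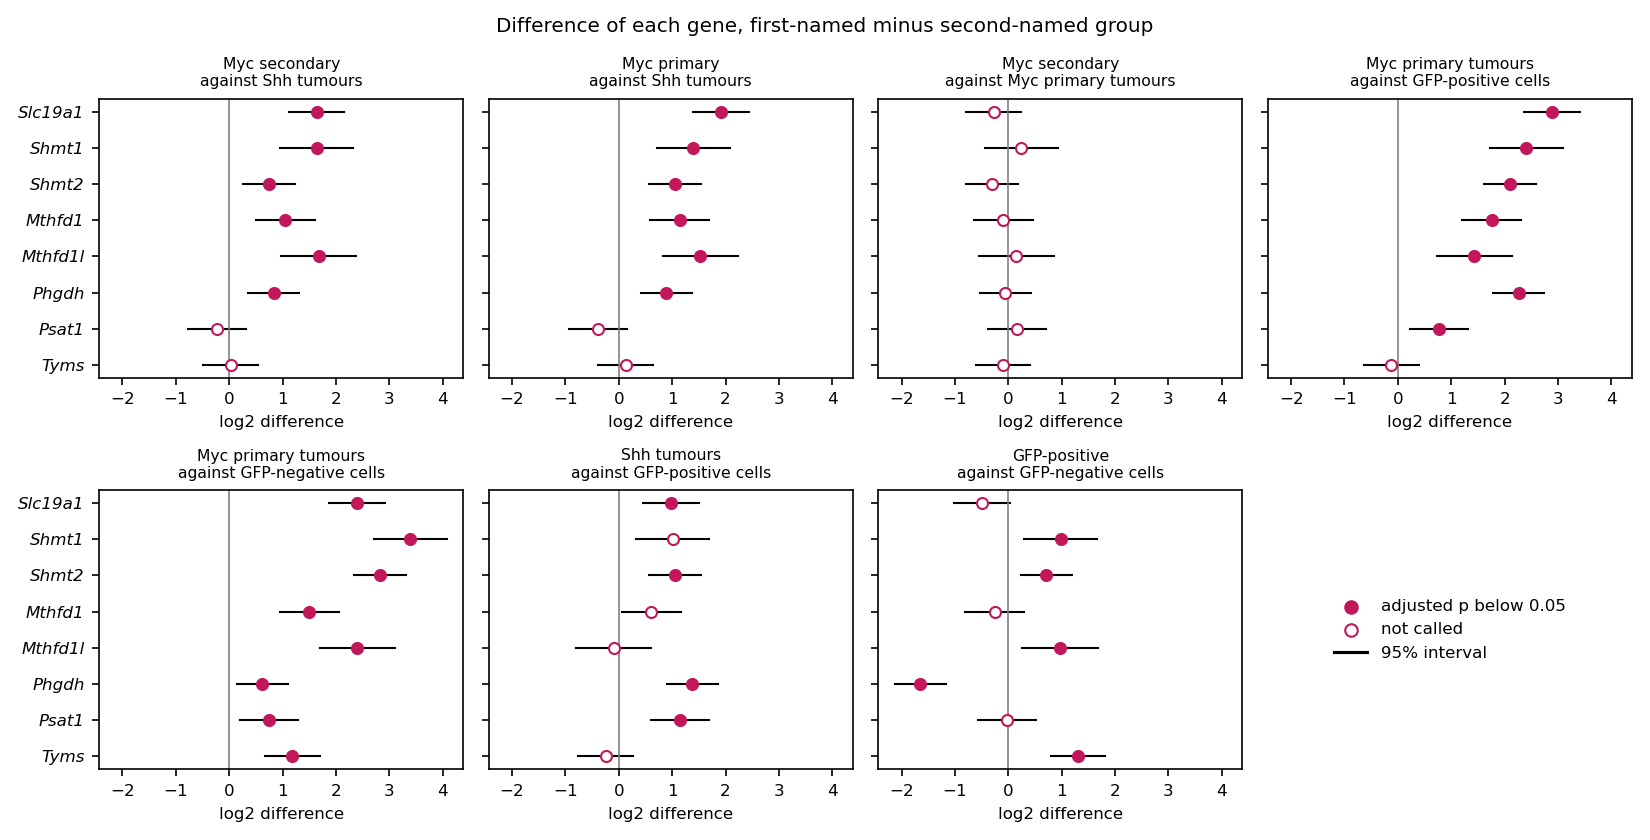
Difference of each gene in log2 units, with 95% intervals from the fit over all genes, in 7 comparisons; the title names the group on top first. Filled points have an adjusted p below 0.05: 6 genes in each comparison of Myc with Shh tumours, 0 between the Myc tumours, 7 and 8 against the sorted cells, 4 for Shh tumours against GFP-positive cells and 5 between the sorted cells.

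Against GFP-positive cells, the granule neuron progenitors, 7 of 8 genes were higher in Myc primary tumours and 0 were lower (14.5% of all genes higher, 10.3% lower), with a median of 1.93. The arrays of the same 7 did not overlap (46.2% of all genes). Slc19a1 read 9.44, 9.44 and 9.31 in the tumours, against 6.42, 6.65 and 6.46 in the cells. This was the largest difference among the 8 genes, 2.89 ± 0.24 or 7.40-fold (adjusted p = 4.8e-06). Shmt1 rose by 2.41 ± 0.32, Phgdh by 2.27 ± 0.22, Shmt2 by 2.11 ± 0.22, Mthfd1 by 1.75 ± 0.25 and Mthfd1l by 1.43 ± 0.32, none with overlap. Psat1 rose by 0.77 ± 0.25 (adjusted p = 0.040). This call ended without any single one of the 6 arrays, at 0.65 without GFP-positive 1, 0.84 without GFP-positive 2, 0.81 without GFP-positive 3, and 0.83, 0.66 and 0.81 without Myc primary 1, 2 and 3. Centring on the median gene ended it too (0.48, adjusted p = 0.136). Tyms did not differ detectably (-0.12 ± 0.23, 95% interval -0.63 to 0.39, adjusted p = 0.79). Tyms is used in S phase, and the S phase and mitosis list was at 10.28 to 10.49 in Myc primary tumours, against 10.26 to 10.62 in GFP-positive cells. In Myc primary tumours all 7 granule neuron progenitor markers were lower, with a list mean of 6.22 to 6.65, against 9.76 to 9.97 in GFP-positive cells. Of the granule neuron markers 4 of 7 were lower, at 6.57 to 6.85 against 7.5 to 7.62, and of the GABAergic and Purkinje markers 3 of 5, at 3.52 to 3.68 against 5.32 to 5.61. Microglial and macrophage markers were higher in 5 of 8, at 6.11 to 6.56 in the tumours, against 3.91 to 4.46 in GFP-positive cells, where all 8 were below background. Markers of fibroblasts and meninges were higher in 3 of 5, at 4.98 to 7.28 against 3.78 to 3.81, and astroglial markers in 2 of 8, at 5.17 to 7.82 against 5.20 to 5.31. The part of these lists in the results on folate genes was not tested.

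Against GFP-negative cells all 8 genes were higher in Myc primary tumours, with no overlap (19.1% of all genes higher, 14.7% lower, 40.9% without overlap), and their median was 1.95. Shmt1 read 9.73, 10.01 and 9.82 in the tumours, against 6.94, 6.90 and 5.54 in the cells. The difference was 3.39 ± 0.32, 10.5-fold (adjusted p = 5.7e-06). Shmt2 rose by 2.82 ± 0.22, Mthfd1l by 2.40 ± 0.32, Slc19a1 by 2.40 ± 0.24, Mthfd1 by 1.5 ± 0.25 and Tyms by 1.18 ± 0.23 (adjusted p = 0.0017). The S phase and mitosis list lay lower in GFP-negative cells, at 9.38 to 9.97 against 10.28 to 10.49 in the tumours, with 10 of its 13 genes called higher in the tumours, and its part in the Tyms result was not tested. Phgdh rose by 0.62 ± 0.22 (adjusted p = 0.046) and Psat1 by 0.75 ± 0.25 (adjusted p = 0.034). The Phgdh call ended without Myc primary 1 (0.71), 2 (0.47) or 3 (0.68) and without GFP-negative 2 (0.34). The Psat1 call ended without Myc primary 1 (0.82), 2 (0.64) or 3 (0.80) and without GFP-negative 2 (0.75) or 3 (0.56). Cyclic loess ended both, at 0.29 for Phgdh and 0.42 for Psat1, and so did a fit on only the 6 arrays (adjusted p = 0.18 for Phgdh and 0.066 for Psat1 in limma). Of the astroglial markers 7 of 8 were lower in the tumours, with list means of 5.17 to 7.82 against 9.06 to 10.18. Microglial and macrophage markers were lower in 8 of 8, at 6.11 to 6.56 against 9.97 to 11.3. Oligodendrocyte lineage markers were lower in 5 of 7, at 4.56 to 8.59 against 8.22 to 9.49, and erythroid markers in 2 of 2. Granule neuron markers were higher in 3 of 7 and lower in 1. The part of these and of the other lists in the results on the 8 genes was not tested.

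Shh tumours were set against GFP-positive cells, which share the granule lineage. Of the 8 genes 4 were higher and 0 lower (4.63% of all genes higher, 2.92% lower), with a median of 0.99 against -0.01 over all genes. The arrays did not overlap for 6 (39.6% of all genes). Phgdh read 9.63, 9.68 and 9.77 in Shh tumours, against 8.39, 8.46 and 8.10 in GFP-positive cells, with no overlap, and rose by 1.38 ± 0.22 (adjusted p = 0.0023). Psat1 read 10.89, 11.04 and 11.14 in Shh tumours, against 9.64, 10.02 and 9.95 in GFP-positive cells, and rose by 1.15 ± 0.25 (adjusted p = 0.014). Both serine synthesis genes were thus above every array of GFP-positive cells in the Shh tumours.

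Shmt2 rose by 1.05 ± 0.22 (adjusted p = 0.012) and Slc19a1 by 0.97 ± 0.24 (adjusted p = 0.027) in Shh tumours against GFP-positive cells. Shmt1 differed by 1.01 ± 0.32 (adjusted p = 0.073) and Mthfd1 by 0.61 ± 0.25 (adjusted p = 0.19), neither called although the arrays did not overlap. Mthfd1l (-0.09 ± 0.32, 95% interval -0.80 to 0.61) and Tyms (-0.25 ± 0.23, interval -0.76 to 0.26) were not called. The Slc19a1 call ended without any 1 array of the comparison, at 0.93, 1.04 and 0.95 without GFP-positive 1, 2 and 3 and at 0.99, 0.99 and 0.94 without Shh 1, 2 and 3. The Psat1 call ended without GFP-positive 1 (1.03) or Shh 3 (1.09), and the Shmt2 call without GFP-positive 1 (1.04). Centring on the median gene ended the Shmt2 call too (0.76). Shmt1 was called with array weights (0.99), cyclic loess (0.96), the mean of its probe sets (0.82), on only the 6 arrays and without the 3 arrays that stood apart (1.01). Of its other probe sets, those at 0.95 and 0.86 were called higher, and the one at 0.46 was not called. Mthfd1 was called with array weights (0.57) and on only the 6 arrays (0.61). Among the marker lists, 5 of 8 microglial and macrophage genes were higher in Shh tumours, with a list mean of 5.94 to 6.67, against 3.91 to 4.46 in GFP-positive cells. Of the GABAergic and Purkinje markers 3 of 5 were lower, at 3.52 to 3.66 in Shh tumours, where all 5 were below background, against 5.32 to 5.61. Astroglial markers were higher in 1 of 8, at 5.58 to 6.42 against 5.20 to 5.31, and their part and that of the other lists was not tested.

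Between the sorted cells the genes split. GFP-positive cells were higher than GFP-negative cells for 4 genes and lower for 1 (12.6% of all genes higher, 13.8% lower), with a median of 0.35. The arrays did not overlap for 5 (42.8% of all genes). Phgdh was the gene that was lower, at 8.39, 8.46 and 8.10 in GFP-positive cells, against 10.29, 9.41 and 10.20 in GFP-negative cells. The difference was -1.65 ± 0.22 (adjusted p = 0.00012), and the arrays did not overlap. Phgdh is known to be abundant in astrocytes and radial glia. Of the 8 astroglial markers, 7 were lower in GFP-positive cells. The list mean was 5.20 to 5.31 in GFP-positive cells, with Gfap, Aqp4, Slc1a2, Aldoc and S100b below background, against 9.06 to 10.18 in GFP-negative cells with none below background. Their part in the lower Phgdh was not tested.

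Tyms read 9.63, 9.99 and 9.52 in GFP-positive cells, against 8.52, 8.61 and 8.10 in GFP-negative cells, a rise of 1.30 ± 0.23 without overlap (adjusted p = 0.0012). The S phase and mitosis list was at 10.26 to 10.62 in GFP-positive cells, against 9.38 to 9.97 in GFP-negative cells, with 8 of 13 genes called higher; its part was not tested. Shmt1 (0.98 ± 0.32, adjusted p = 0.036), Mthfd1l (0.97 ± 0.32, adjusted p = 0.043) and Shmt2 (0.71 ± 0.22, adjusted p = 0.031) were higher in GFP-positive cells. Without GFP-negative 3 these became 0.52, 0.55 and 0.52, and none was called. The Shmt1 call also ended without GFP-positive 1 (1.04), 2 (0.83) or 3 (1.08), the Mthfd1l call without GFP-positive 1 (0.93), 2 (0.97) or 3 (1.01), and the Shmt2 call without GFP-negative 2 (0.77) or GFP-positive 1 (0.73), 2 (0.72) or 3 (0.70). Cyclic loess ended the calls of Shmt1 (0.69), Mthfd1l (0.67) and Shmt2 (0.42). A fit on only the 6 arrays ended those of Shmt1 (adjusted p = 0.12) and Mthfd1l (adjusted p = 0.092), and the mean of its probe sets that of Shmt2 (0.42). Of the other Shmt1 probe sets, those at 0.34 and 0.59 were not called, and the one at 1.17 was. The other Shmt2 probe sets gave 0.43 and 0.12, neither called.

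Slc19a1 differed by -0.49 ± 0.24 between GFP-positive and GFP-negative cells (adjusted p = 0.17). Without GFP-negative 3 it was -0.82 and was called lower (adjusted p = 0.0035), as it was with array weights (-0.83) and cyclic loess (-0.78). Mthfd1 (-0.26 ± 0.25, 95% interval -0.81 to 0.29) and Psat1 (-0.02 ± 0.25, interval -0.56 to 0.53) were not called. The sorted cells thus held the lowest group mean of all 8 genes, GFP-negative cells for Shmt1, Shmt2, Mthfd1l and Tyms and GFP-positive cells for Slc19a1, Mthfd1, Phgdh and Psat1.

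Across the 5 groups the order of levels was not the same for every gene. Shmt1, Shmt2, Mthfd1, Mthfd1l, Slc19a1 and Phgdh were highest in the Myc tumours, whose secondary and primary arrays overlapped for each gene. Shmt1 and Shmt2 then went down from Shh tumours through GFP-positive to GFP-negative cells, with no overlap between neighbours. For Mthfd1 the arrays of Shh tumours, GFP-negative and GFP-positive cells overlapped between neighbours, as did those of GFP-positive cells and Shh tumours for Mthfd1l. Phgdh was next highest in GFP-negative cells, which overlapped Shh tumours. Psat1 was highest in Shh tumours, which overlapped the Myc secondary tumours next in order. Tyms overlapped between neighbours in every group except GFP-negative cells, which were lowest.

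As a description over the 15 arrays, which share their group structure, Shmt1 and Shmt2 had a Pearson correlation of 0.97, Slc19a1 and Mthfd1 of 0.96 and Shmt1 and Mthfd1l of 0.95. Tyms and Phgdh had -0.20, and Tyms had 0.33 to 0.67 with the other genes, apart from Phgdh. Without GFP-negative 3 they were 0.15 with Slc19a1 to 0.49 with Mthfd1l, and -0.16 with Phgdh. Among 9765 genes above background, the nearest profile to Shmt1 was that of Dkc1, the dyskerin of small nucleolar RNA complexes (0.99), followed by Ndufaf6 and Dnph1 (both 0.99). For Shmt2 it was Nle1, Mfsd10 and Eif3d (0.98 each), for Mthfd1 Utp20 (0.98), a ribosomal RNA processing factor, Pcolce2 and Mrpl33 (0.97 each). For Mthfd1l it was Galk2, Romo1 and Gpn3 (0.98 each) and for Slc19a1 Cisd3, Aprt and Phykpl (0.98 each). Aprt salvages adenine. Correlations were lower for Tyms, at 0.94 with Myef2, Taf5 and Mterf4, for Phgdh, at 0.94 with Syde2 and 0.93 with Suclg2 and Ppic, and for Psat1, at 0.95 with Trmt10a and 0.93 with Anxa9 and Mre11a.

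Of 31 further genes of folate transport, folate interconversion, serine and glycine, the methionine cycle and thymidylate supply, 24 were measured. In Myc secondary against Shh tumours 7 of the 24 were higher and 2 lower (10.5% and 12.3% of all genes), with a median of 0.52. In Myc primary against Shh tumours 7 were higher and 1 lower (8.46% and 7.33% of all genes), with a median of 0.49. Of the 6 measured genes of folate interconversion, among them Mthfd2l, 0 were called in either comparison, with medians of 0.01 and 0.02. Fpgs, which adds glutamates that keep folate in the cell, read 9.38, 9.21 and 8.66 in Myc secondary and 9.20, 9.05 and 8.20 in Myc primary tumours, against 7.06, 6.49 and 6.87 in Shh tumours. It rose by 2.28 ± 0.26 in secondary (adjusted p = 6.0e-05) and by 2.01 ± 0.26 in primary tumours (adjusted p = 0.00025). Ggh, the hydrolase that removes those glutamates, was lower, by -0.58 ± 0.16 in secondary and -0.56 ± 0.16 in primary tumours. The secondary call of Ggh ended without Myc secondary 1 (-0.53) or 2 (-0.57) and Shh 1 (-0.52) or 3 (-0.52), and the primary call without Myc primary 1 (-0.50), 2 (-0.58) or 3 (-0.60) and Shh 1 (-0.51) or 3 (-0.51). Centring on the median gene ended the secondary call (-0.25, adjusted p = 0.229), and an intensity trend with robust variance the primary call (adjusted p = 0.061). The direction of the carrier Slc19a1 and of Fpgs was thus the same, and that of Ggh the opposite, in both Myc tumour groups.

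Cbs, which draws homocysteine from the methionine cycle into cysteine synthesis, read 6.76, 8.48 and 8.35 in Myc secondary and 7.63, 7.40 and 7.32 in Myc primary tumours, against 5.28, 4.38 and 4.91 in Shh tumours, near the background level. It rose by 3.0 ± 0.41 in secondary (adjusted p = 0.00021) and by 2.59 ± 0.41 in primary tumours (adjusted p = 0.00093) against Shh tumours. Gldc, the glycine decarboxylase, rose by 1.97 ± 0.57 in Myc primary tumours (adjusted p = 0.034). Leaving out Shh 1 (1.92), Shh 2 (1.69), Myc primary 2 (1.77) or Myc primary 3 (1.96) ended it. Psph, the phosphatase of the last step of serine synthesis, was not called in secondary (0.32 ± 0.23) or primary tumours (0.30 ± 0.23). Phgdh was thus the only gene called of the 3 of this route, Phgdh, Psat1 and Psph, in both comparisons with Shh tumours.

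Around Tyms, the genes of thymidylate supply did not move together in the Myc tumours. Dctd, the deaminase that makes the substrate of Tyms from a cytosine nucleotide, read 9.13, 9.39 and 9.20 in Myc secondary and 9.41, 8.94 and 9.12 in Myc primary tumours, against 6.97, 7.01 and 7.72 in Shh tumours. It rose by 2.01 ± 0.25 in secondary (adjusted p = 0.00012) and by 1.92 ± 0.25 in primary tumours (adjusted p = 0.00027). Dctd was also higher in Shh tumours than in GFP-positive cells, by 2.34 ± 0.25 (adjusted p = 0.00016), and in Myc primary tumours than in GFP-positive cells, by 4.26 ± 0.25 (adjusted p = 4.1e-07). Dut, which makes the same substrate from dUTP, rose by 0.72 ± 0.15 in secondary and 0.57 ± 0.15 in primary tumours against Shh tumours. Tk1, the thymidine kinase of the salvage route, fell by 1.41 ± 0.41 in secondary tumours (adjusted p = 0.027). This call ended without Myc secondary 2 (-1.43) or 3 (-1.10) and without Shh 2 (-1.44) or 3 (-1.18), and in primary tumours the difference was -1.17 ± 0.41 (adjusted p = 0.073).

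**Figure D4:**
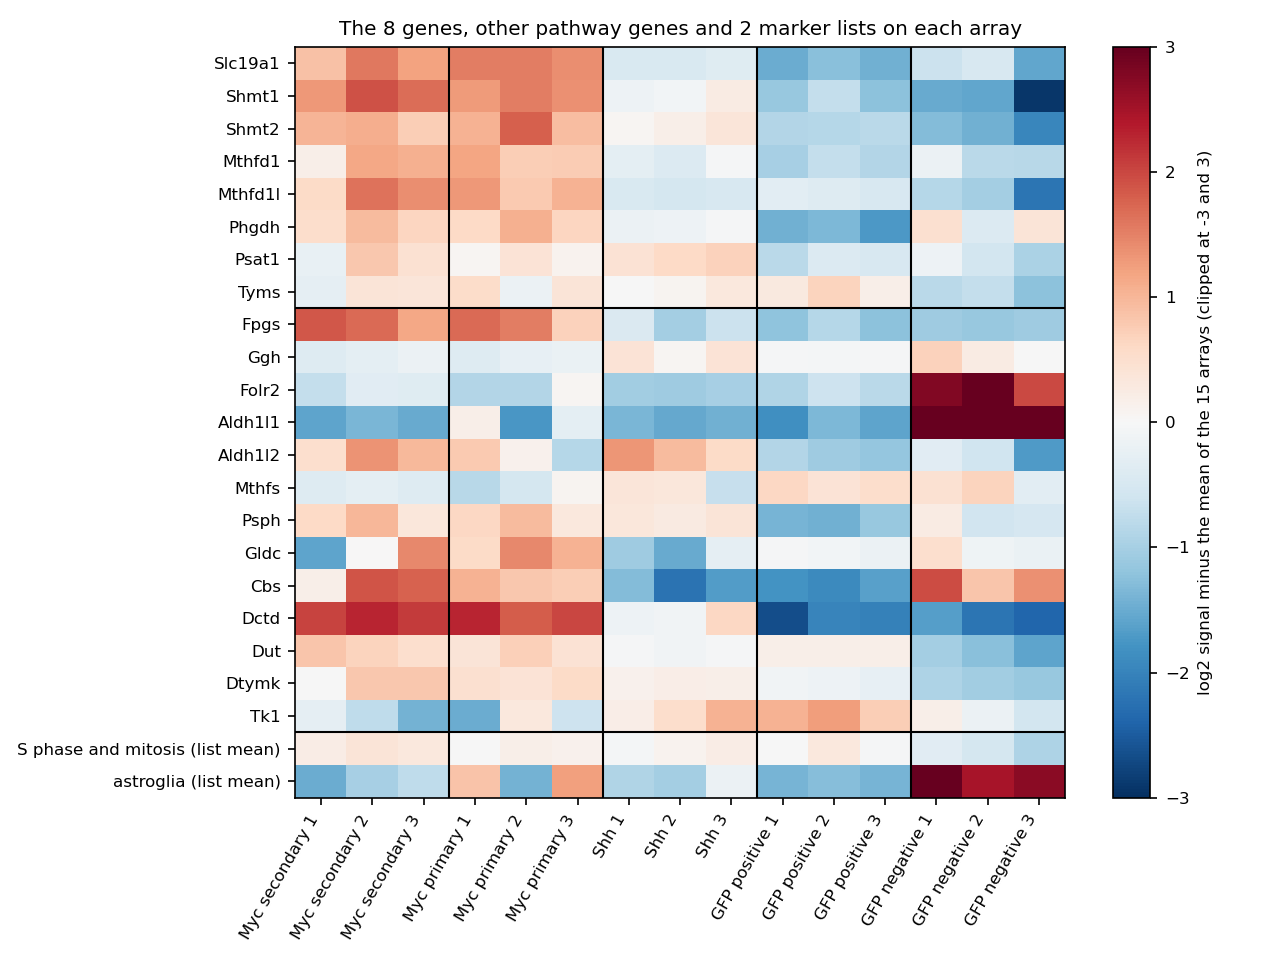
Log2 signal of the 8 genes (top block), of 13 other pathway genes named in the text (middle) and the mean of 2 marker lists (bottom), each minus its mean over the 15 arrays and clipped at -3 and 3. Slc19a1, Shmt1, Fpgs and Dctd are red on all 6 Myc tumour arrays, whereas Tyms is pale there and Aldh1l1 and Folr2 are red on the GFP-negative arrays.

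Against the sorted cells, 9 of the 24 genes were higher and 2 lower in Myc primary tumours than in GFP-positive cells (14.5% and 10.3% of all genes). Against GFP-negative cells 10 were higher and 3 lower (19.1% and 14.7% of all genes). Cbs (2.64 ± 0.41) and Fpgs (2.41 ± 0.26) rose against GFP-positive cells, and Tk1 (-1.60 ± 0.41) and Mthfs, which returns folinate to the folate pool (-0.94 ± 0.31, adjusted p = 0.045), were lower. The Mthfs call ended without GFP-positive 1 (-0.89), 2 (-0.99) or 3 (-0.94) and without Myc primary 1 (-0.73) or 2 (-0.89). Against GFP-negative cells Dctd (4.12 ± 0.25), Fpgs (2.40 ± 0.26) and Dut (1.80 ± 0.15) rose. Ggh was lower (-0.58 ± 0.16, adjusted p = 0.014), which was lost on only the 6 arrays (adjusted p = 0.099), with centring (-0.37), without GFP-negative 1 (-0.39) and without Myc primary 1 (-0.52).

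Aldh1l1, a folate dehydrogenase used as an astrocyte marker, read 5.53, 3.61 and 5.05 in Myc primary tumours. Its mean there of 4.73 was just below background, against 10.50 in GFP-negative cells. Folr2, a folate receptor of macrophages, was below background in Myc primary tumours, with a mean of 4.07 against 7.48 in GFP-negative cells. The 8 microglial and macrophage markers averaged 6.11 to 6.56 in Myc primary tumours, with Cx3cr1 below background, against 9.97 to 11.3 in GFP-negative cells with none below background, and their part in the Folr2 result was not tested. Among the 24 genes 4 were higher and 0 lower in Shh tumours than in GFP-positive cells (4.63% and 2.92% of all genes), among them Aldh1l2, a mitochondrial folate dehydrogenase (1.99 ± 0.41, adjusted p = 0.010), and Psph (1.66 ± 0.23, adjusted p = 0.0010). In GFP-positive against GFP-negative cells 4 were higher (12.6% of all genes), among them Dut (1.46 ± 0.15), Dtymk, the thymidylate kinase (0.87 ± 0.18), and Tk1 (1.20 ± 0.41, adjusted p = 0.047). Another 4 were lower (13.8% of all genes), among them Cbs (-3.17 ± 0.41), Aldh1l1 and Folr2, whose means in GFP-positive cells were below background, at 3.76 and 3.85. The Tk1 call ended without any 1 of GFP-positive 1 (1.19), 2 (1.08) or 3 (1.34) and without GFP-negative 2 (1.21) or 3 (1.02), and with cyclic loess (0.91).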

How the data were processed

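The files hold the authors' log2 signals, which were computed by robust multi-array averaging (RMA) in Partek 6.5, per the submitters' processing notes. Their RMA settings are not given in the sources used here. The deposited values were used without further scaling. Of 45141 probe sets, 104 controls were left out, as were 551 listed with several genes and 15588 with no listed gene. Symbols were updated through the gene identifier in GRCm38.p6 for 28689 of the other 28898, and 209 kept the listed symbol. Background came from 23 nonspecific control probe sets.

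Groups were compared with limma 3.58.1 (lmFit and eBayes) in R 4.3.3, in a single one-way fit over 5 groups of 3 arrays, with 10 residual degrees of freedom and 2.54 prior ones. All p-values are two-sided, with Benjamini-Hochberg adjustment over 17097 genes, or over 28898 probe sets where probe sets are counted. The members, lists and alternatives were chosen with earlier results of these data known. Members were all named, with up to 3 called genes of the pathway lists per direction and comparison, and the 3 nearest profiles. The fit was also run on simulated data with independent noise and no array effects, so no support for the calls is drawn from it. Other settings tried were cyclic loess, median centring, array weights, a robust fit with an intensity trend, averaging probe sets by gene, keeping every probe set, leaving out dim genes, fitting only the 6 arrays compared, and leaving out arrays. Title numbers follow the groups, so any order of processing and the groups cannot be told apart. GFP-negative 1 and 2 are numbered 211 and 212, but GFP-negative 3 is 219, next to GFP-positive cells at 220 to 222. The labels state no batch or pairing. Figures used Python 3.11.15 and matplotlib 3.10.9.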

Additional observations from a re-analysis of the deposited data

How the results depend on the processing

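Of the 36 called differences of the 8 genes, none turned direction under the other settings. Over 540 pairs of a difference and a setting, 480 kept the call and 60 did not. The settings reuse the same 15 arrays and are not independent. Between GFP-positive and GFP-negative cells 5 genes were called, against 3 with cyclic loess and 3 on only the 6 arrays, and 2 to 5 with an array left out. For Myc primary tumours, 8 became 6 to 8 against GFP-negative and 7 became 6 against GFP-positive cells with an array left out. For Shh tumours against GFP-positive cells 4 became 6 with array weights or on only the 6 arrays, 3 with centring, and 1 to 3 with an array left out. Where an array was left out, 4 to 6 genes were called for Myc secondary and 5 to 6 for Myc primary against Shh tumours.

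Uncalled differences changed sign as follows. Between Myc secondary and primary tumours, Mthfd1 (-0.10) became 0.20 with array weights, 0.23 with median centring, 0.15 without the 3 arrays and -0.27 to 0.21 with an array left out. Tyms (-0.10) became 0.10, 0.23, 0.19 and -0.32 to 0.12 under the same alternatives. Phgdh (-0.06) became 0.03 with array weights, 0.27 with centring and -0.18 to 0.09. Mthfd1l ran from -0.06 to 0.47 and Psat1 from -0.07 to 0.44 with an array left out. Centring gave 0.02 for Shmt2 and 0.05 for Slc19a1. Against Shh tumours, Psat1 in secondary tumours became 0.06 with array weights, 0.10 with centring, 0.06 without the 3 arrays and -0.46 to 0.06. The mean of its probe sets gave Tyms -0.14 in secondary and -0.12 in primary tumours, and 0.09 for Shh tumours against GFP-positive cells. Left-out arrays gave Tyms -0.09 to 0.25 in secondary and -0.02 to 0.34 in primary tumours, and -0.27 to 0.09 for Myc primary tumours against GFP-positive cells. They gave Atf4 -0.20 to 0.36 and Myc -1.68 to 0.21 in primary tumours. Between sorted cells, centring gave 0.24 for Mthfd1, 0.48 for Psat1 and 0.01 for Slc19a1, and Psat1 ran from -0.21 to 0.18.

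Median centring moved the median of all genes, to 0.54 between sorted cells, 0.40 for Myc secondary against Shh tumours and 0.30 between the Myc tumours. Higher and lower calls over all genes were then 7516 and 1612 between sorted cells (1326 and 2997 with cyclic loess), against 2149 and 2356. They were 4084 and 1940 for Myc primary tumours against GFP-negative cells (2623 and 3319 with loess), against 3260 and 2512. They were 1574 and 2745, against 2476 and 1756, for Myc primary tumours against GFP-positive cells, 3611 and 1342, against 1798 and 2099, for Myc secondary against Shh tumours, and 481 and 1010, against 792 and 500, for Shh tumours against GFP-positive cells. Between the Myc tumours they were 213 and 61 (38 and 159 with loess), against 44 and 79, and the total of 123 ranged from 1 on the 6 arrays to 581 with array weights. The totals for Shh tumours against GFP-positive cells ranged from 665 to 3987, against 1292, and those of Myc primary against Shh tumours from 1795 to 4073, against 2701. Array weights gave 6566 for Myc secondary against Shh tumours, against 3897, and 7225 between sorted cells, against 4505. The causes were not tested. No paired analysis was possible because the labels give no replicate numbers.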
